A study of Mus musculus with 1049 samples.

Results

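Cycling and non-cycling dermal fibroblasts of newborn mice were compared within each of 2 experiments. A newborn cell was counted as cycling if it had a read in at least 3 of 10 cell cycle genes (Pclaf, Birc5, Spc24, Spc25, Rrm2, Cdk1, Pbk, Tk1, Top2a and Mki67, called rule genes here) and as non-cycling if it had a read in none of them. The members were thus chosen by measured reads of these 10 genes. Of the newborn cells that passed the quality limits, 31 were cycling (22 in experiment 1 and 9 in experiment 2) and 180 were non-cycling (110 and 70), out of 735 cells kept in the whole series. The other 38 newborn cells kept had a read in 1 or 2 rule genes and were in neither state.

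The series profiled single skin fibroblasts of C57Bl/6 mice that were newborn (1.5 or 2.5 days old), young (2 months) or old (18 months), with no treatment or engineered allele. Of newborn mice the labels' protocols mention female littermates at P2. Dermal cells were sorted singly after staining for CD45, CD117, EpCam, CD31, CD34 and Pdgfra, with CD24 left out of the lineage selection, and sequenced with Smart-seq2, which copies polyadenylated RNA along its whole length, adds no molecular identifiers and does not mark the strand. The labels name 2 experiments but no single mice, and the cells came from 9 plates once repeat sequencing runs of the same wells were added, so reads were added up over the cells of each state in each experiment, which gave 4 sums and n = 2 per state. With this n, p-values rest on the spread between the 2 experiments, and the tests used below borrow part of that spread from other genes. A small p is thus not a measure of 1 gene's own spread between experiments, nor of the spread between mice.

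A dividing cell copies its DNA and histones in S phase and then assembles a spindle of microtubules, checks the attachment of its chromosomes and divides. Genes for these steps are switched on in turn, in large part through E2F factors before S phase and through complexes that bind the CHR element and CCAAT boxes before mitosis. Dermal fibroblasts still divide in the first days after birth, while they also lay down collagen, proteoglycans and elastic microfibrils, and they stop dividing as the skin matures.

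Every cycling cell carried fibroblast genes. Col1a1, Col1a2, Col3a1, Dcn and Lum were each read in 31 of 31 cycling cells and in all, or all but 1, of 180 non-cycling cells. Ptprc (CD45), Kit (CD117), Pecam1 (CD31) and Cdh5 had 0 reads in both states, and Epcam was read in 1 cell of each. Summed over 10 immune markers the level was 0.0808 and 0 CPM (reads scaled to a fixed library total) in the cycling sums and 3.63 and 1.15 CPM in the non-cycling sums, with 1 and 4 of the markers read at all. The 10 keratinocyte markers were at 27.1 and 5.33 against 72.3 and 36.1 CPM (5 and 10 read, Krt5 at 0 reads in cycling cells), and 9 pericyte and smooth muscle markers at 68.5 and 41.3 against 98.1 and 225.3 CPM (5 and 6 read, Rgs5 and Des at 0 in both). No doublet caller was run on the sorted wells.

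Cycling cells had more genes with a read, at a slightly lower median depth. A median of 3075 genes was detected in cycling and 2076 in non-cycling cells of experiment 1, and 3373 and 2669 in experiment 2. Median depth was 885672 and 965408 reads on genes per cell in experiment 1 and 1068178 and 1193814 in experiment 2. After each cell was thinned to 100000 reads the medians were 2557.5 and 1675.5 genes in experiment 1 and 2888 and 2158.5 in experiment 2, and cycling cells were higher on 9 of 9 plates. The 4 sums held 23292271 and 8493435 reads in cycling and 116554181 and 93551382 reads in non-cycling cells. RNA content per cell could not be measured, because spike-in reads were present in 2 of the 735 cells.

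The number of rule genes read per cell was spread unevenly. In 25 of the 31 cycling cells 7 to 10 rule genes had a read, in 6 cells 3 to 5 had one, and no newborn cell had exactly 6. Pclaf, which encodes a clamp-associated replication factor, was read in 31 of 31 cycling cells, and Birc5, the survivin subunit of the chromosomal passenger complex, in 29. Rrm2, a subunit of the enzyme that makes deoxynucleotides, was read in 28, Spc24 and Spc25, parts of the outer kinetochore, in 26 and 24, Tk1, thymidine kinase, in 25 and Cdk1, the mitotic kinase, in 24. Top2a, which untangles DNA, was read in 23, the kinase gene Pbk in 21 and the proliferation antigen gene Mki67 in 17. These reads chose the cells, so their levels are a description only: Pclaf was at 1342 and 1079 CPM in the cycling sums, Rrm2 at 1053 and 721.5 CPM and Mki67 at 231.5 and 381.6 CPM, all at 0 in the non-cycling sums by construction.

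**Figure D1:**
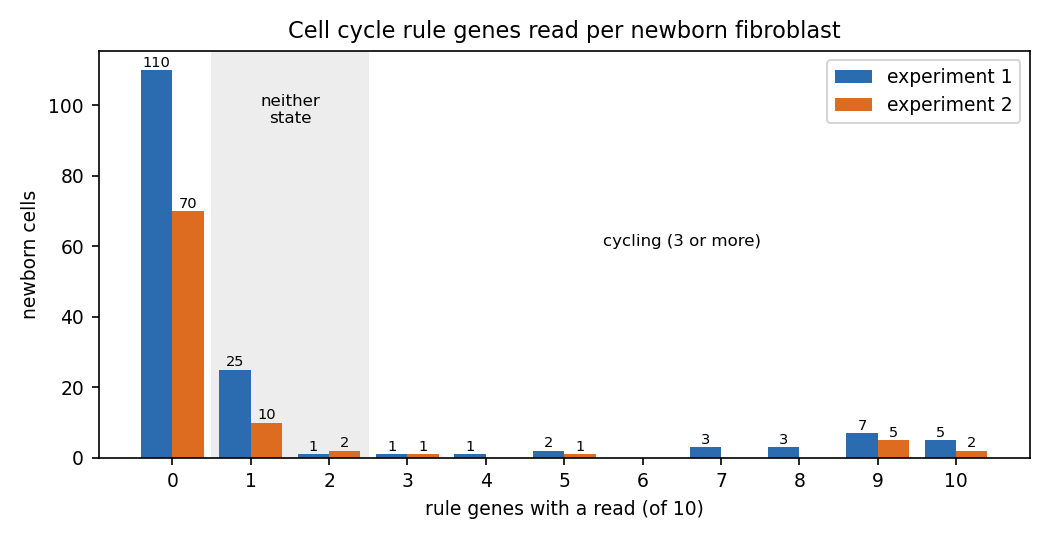
Number of rule genes with a read (horizontal axis, of 10) against the number of newborn cells (vertical axis), with bars for experiment 1 (blue) and experiment 2 (orange) and the count above each bar. Most cells had none (110 and 70), the grey band marks the 38 cells in neither state, and 25 of the 31 cycling cells had 7 to 10.

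Cells near the limit of 3 rule genes were few. Exactly 2 rule genes were read in 3 cells, in which 6, 6 and 18 of 65 tested mitosis genes that the rule did not use were read, and exactly 3 in 2 cells, with 2 and 14. Among the 38 cells in neither state Rrm2 was the gene read most often, in 21, while Mki67 and Pbk were read in none. Thinned to 100000 reads, the same number of cells, 31, reached 3 rule genes.

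The cycling share of newborn cells was 13.9% (22 cells, exact Clopper-Pearson 95% interval 8.94 to 20.3%) in experiment 1 and 9.89% (9 of 91 cells, 4.62 to 17.9%) in experiment 2. Over the plates it ran from 1 of 20 cells (5.00%, 0.127 to 24.9%) to 7 of 32 (21.9%, 9.28 to 40%), with intervals that overlapped. Among adult cells 0 young and 0 of 240 old cells reached 3 rule genes, which allows shares of up to 1.22 and 1.25% at a limit of 3 cells (exact 95% upper bounds 1.49 and 1.53%), and none had a read in more than 1. These intervals cover the counting of cells only, not the spread between mice or experiments.

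Across all other genes, cell division genes, chromatin proteins and tubulins were at higher levels in the cycling cells of both experiments, and collagens, proteoglycans and elastic fibre genes at lower levels. Stmn1 was 15.4-fold higher, Hmgb2 19.2-fold higher and H2afz 6.21-fold higher, while Col3a1 was 2.05-fold and Aspn 14.3-fold lower. edgeR's quasi-likelihood test on the 4 sums, with the experiment as a block, called 0 of 13322 genes higher and 0 lower at a Benjamini-Hochberg adjusted p of 0.05 (0% in each direction). By that test 3.77% of the genes had an unadjusted p under 0.05, and the smallest adjusted p was 0.686, with 1 residual degree of freedom. DESeq2 on the same sums called 939 genes higher (7.05%) and 1994 lower (15%). Both cycling sums lay above both non-cycling sums for 13.6% of the genes tested and below them for 32.3%, and 1266 of the genes had 0 reads in cycling cells.

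A second measure weighted every cell equally. Mean log2(CPM + 1) over the cells of each sum was tested with limma, for the 7726 genes that at least 10% of cells in 1 state carried, and 761 (9.85%) were called higher and 62 (0.802%) lower in cycling cells. This scale counts detection, and its median difference over all genes was 0.47 toward cycling cells, which also had more genes with a read. When non-cycling cells were paired with cycling cells by their number of genes with a read, limma called 32 genes higher (0.414%) and 4 lower (0.0518%), and the median difference was 0.15. All 36 had also been called, in the same direction, with all cells. The pairing was incomplete in experiment 1, where the paired non-cycling cells had a median of 2555 genes against 3075. A gene could enter limma's test through reads in 1 state alone, and with no read in the other state it could only be called toward the first. Calls by limma below are given for all cells and for paired cells, and n is 2 sums per state throughout. Levels are CPM, the reads of a gene scaled to a fixed library total with TMM adjustment, folds are ratios of the mean CPM of the 2 sums of each state, and log2 fold changes are edgeR's estimates ± standard error, none of which passed edgeR's threshold. Over all genes tested the median log2 fold change was -0.70 as fitted and -0.30 when a state with fewer than 3 reads was set to a bound of 3 reads.

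**Figure D2:**
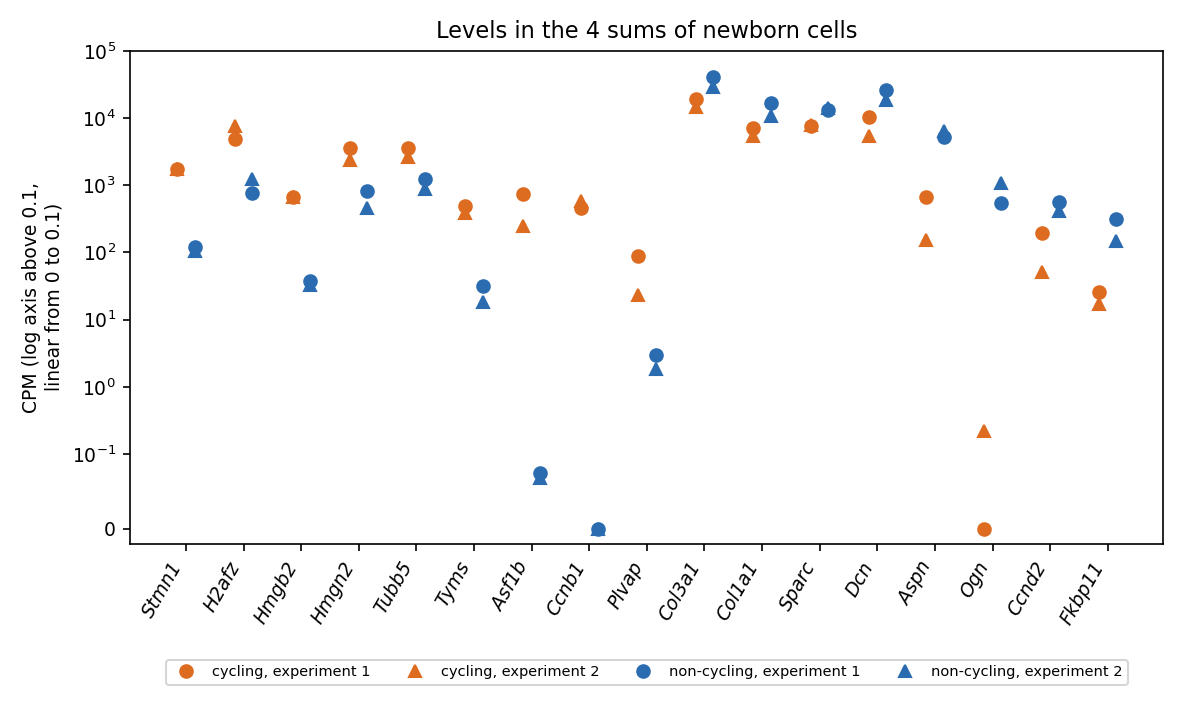
Level in CPM (vertical axis, logarithmic above 0.1 and linear below) of 17 genes in the 4 sums; orange marks cycling and blue non-cycling cells, circles experiment 1 and triangles experiment 2. For each gene from Stmn1 to Plvap both orange marks lie above both blue marks, and for each gene from Col3a1 to Fkbp11 below them.

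Proteins that package or loosen chromatin were higher in the cycling sums. H2afz, the histone variant H2A.Z (chr3:137864487-137866922), was at 4909.9 and 7480.1 CPM in the cycling sums and 758.2 and 1236 CPM in the non-cycling sums, 6.21-fold higher on average (log2 fold change 2.65 ± 0.11). The groups did not overlap in the sums, and H2afz was read in every cycling cell, where the lowest, median and highest levels were 1697, 5162 and 9318 CPM in experiment 1 and 3415, 5598 and 18221 CPM in experiment 2, against 0, 619.02 and 3602 CPM in experiment 1 and 0, 648.2 and 7891 CPM in experiment 2 in non-cycling cells. Hmgb2, a DNA-bending high mobility group protein (chr8:57511907-57515999), was at 658.3 and 677.97 CPM in the cycling sums and 37.3 and 32.3 CPM in the non-cycling sums (19.2-fold higher, log2 fold change 4.27 ± 0.27). All cycling cells had reads of Hmgb2, against 24 of 110 and 23 of 70 non-cycling cells. Hmgn2, which binds nucleosomes and opens chromatin, was at 3633 and 2345 CPM in the cycling sums and 819.8 and 463.96 CPM in the non-cycling sums (4.66-fold higher). Ptma, prothymosin alpha, a histone-binding protein, was at 1088 and 2306 CPM in the cycling sums and 441.6 and 798.1 CPM in the non-cycling sums (2.74-fold higher). Limma called H2afz, Hmgb2 and Hmgn2 with all cells (adjusted p 6.93e-11, 1.6e-09 and 3.28e-08) and with paired cells (0.0288, 0.0136 and 0.0379), where the differences were 3.40 ± 0.37, 7.31 ± 0.64 and 2.76 ± 0.33 on the log2(CPM + 1) scale.

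Of the list of 35 histone and chromatin genes, 34 were tested. Both cycling sums lay above both non-cycling sums for 27 of them (79.4%, against 13.6% of all genes) and below for 0. The median log2 fold change was 1.73 as fitted and 1.65 at the bound. The 1 member with 0 reads in the non-cycling cells could not lie below. Of the 32 that limma tested it called 22 higher and 0 lower, against 9.85% and 0.802% of all genes. With paired cells it called 7 higher (H2afz, H2afv, Hmgn2, Hmgb2, Hmgb3, Dek and Hist1h2ap), against 0.414% of all genes. Added up, the list was at 24268 and 27104 CPM in the cycling sums of experiments 1 and 2 and 9961 and 9838 CPM in the non-cycling sums, higher on 9 of 9 plates. Hist1h2ap, a replication-dependent H2A gene picked here after its values were seen, was at 210.4 and 96.5 against 0.618 and 0.0225 CPM; most messages of such histones lack a poly(A) tail, and the gene has near-identical copies whose reads the counting could split. H3f3b, a replication-independent H3.3 gene, differed less, at 4067 and 5906 against 3051 and 3233 CPM (1.59-fold higher).

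Genes of DNA replication made up the next group. Tyms, thymidylate synthase, was at 495 and 383.9 CPM in the cycling sums and 31.5 and 18.6 CPM in the non-cycling sums (17.5-fold higher, log2 fold change 4.17 ± 0.33). The sums did not overlap, and Tyms was read in 19 of 22 and 8 of 9 cycling cells and 10 of 110 and 6 of 70 non-cycling cells. Pcna, the sliding clamp of DNA polymerases, was at 567.5 and 429.98 CPM in the cycling sums and 122.3 and 138.2 CPM in the non-cycling sums (3.83-fold higher). Gins2, part of the replicative helicase, was at 334.6 and 142.9 CPM in the cycling sums and 28.1 and 16.8 CPM in the non-cycling sums (10.6-fold higher). Gins2 overlaps Gse1 and Gm20388 on the other strand (2259 and 7570 reads in newborn cells). Without strand their shared reads cannot be told apart. Asf1b (chr8:83955507-83970197), a chaperone that hands histones to new DNA, was at 751.4 and 247.4 CPM in the cycling sums and 0.0749 and 0.0676 CPM in the non-cycling sums. Its 14 reads in all non-cycling cells came from 2 cells, so its fold rests on those reads. Mcm2, a subunit of the licensed helicase, was at 35.6 and 266.1 CPM in the cycling sums and 0 and 0.0225 CPM in the non-cycling sums. Its 2 reads in the non-cycling cells came from 1 cell and may be 1 fragment. With these set to a bound of 3 reads the pooled ratio was 6391. The interval, taken from the 2 reads themselves, was 2652 to 79193 and covers the counting of reads only. Slbp, which binds the stem-loop of histone messages, was at 1196 and 884.1 against 144.5 and 241.6 CPM (5.39-fold higher).

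In the list of 52 replication genes, 49 were tested. Of these 42 lay above in both sums (85.7%, against 13.6% of all genes) and 1 below (Rfc3). The median was 4.17 as fitted and 4.01 at the bound. The 6 members with 0 reads in the non-cycling cells could not lie below. Of the 45 that limma tested it called 35 higher and 0 lower, against 9.85% and 0.802% of all genes. With paired cells it called 3 higher (Tyms, Asf1b and Dut, which removes dUTP), against 0.414% of all genes. The summed list was at 9381 and 6932 CPM in the cycling sums of experiments 1 and 2 and 1159.99 and 1117 CPM in the non-cycling sums, a mean log2 ratio of 2.82 ± 0.27 (SD over experiments). It was higher on 8 of 9 plates and lower on plate P2143, which held 1 cycling cell (log2 ratio -1.62).

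The mitotic list had the highest median of the 18 lists. Ccnb1, cyclin B1 (chr13:100778650-100786570), was at 455.2 and 585.1 CPM in the cycling sums and had 0 reads in all 180 non-cycling cells. Against a floor of 3 reads over both non-cycling sums the ratio was 31965, which rests on reads and not on counted molecules. Aurkb, the kinase of the chromosomal passenger complex, was at 164.2 and 551.6 CPM, and Plk1, polo-like kinase 1, at 29.9 and 59.9 CPM, both with 0 reads in non-cycling cells. Anln, the cytokinesis scaffold anillin, was at 228.7 and 297.02 against 0.393 and 1.28 CPM. Tacc3, a spindle protein, was at 380.5 and 399.4 against 18.4 and 26.5 CPM (17.4-fold higher). Tacc3 overlaps Tmem129 on the other strand (12576 reads in newborn cells), and without strand their shared reads cannot be told apart. Mad2l1, a spindle checkpoint protein, was at 433.3 and 288.1 against 36 and 26.6 CPM (11.5-fold higher). Cks1b, a partner of cyclin-dependent kinases, was at 403.4 and 480.8 against 103.4 and 84.8 CPM (4.7-fold higher). Aurkb and Plk1 were picked after their values were seen.

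Of 66 mitosis genes 65 were tested. For 59 of them (90.8%, against 13.6% of all genes) both cycling sums lay above both non-cycling sums, and for 0 below. The median was 10.47 as fitted and 8.37 at the bound. The 24 members with 0 reads in the non-cycling cells could not lie below. Limma called 61 of 64 tested higher and 0 lower, against 9.85% and 0.802% of all genes (0.414% higher with paired cells). With paired cells it called 10 higher: Ccnb1, Cks1b, Cks2, Mad2l1, Ube2c, Racgap1, Cdca3, Cdca8, Cenpm and Cenpw. Of these Ccnb1 and Cdca3 had no read in the non-cycling cells, so they could only come out higher. The list added up to 11689.5 and 13371 CPM in the cycling sums of experiments 1 and 2 and 650.2 and 533.1 CPM in the non-cycling sums, a mean log2 ratio of 4.41 ± 0.34, and was higher on 9 of 9 plates.

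Cycling cells differed among themselves in which of these genes they carried. In cells with 7 to 10 rule genes the lowest, median and highest number of mitosis genes read was 13, 36 and 47 of 65, and of replication genes 4, 18 and 35 of 49. In the 6 cells with 3 to 5 rule genes the numbers were 2, 10 and 19 mitosis genes and 3, 21 and 29 replication genes. Ccnb1 was read in 18 of the 25 cells with 7 to 10 rule genes and in 1 of the 6 others, Plk1 in 9 and 0, and Tyms in 23 and 4. In non-cycling cells the medians were 2 mitosis genes (highest 7) and 2 replication genes (highest 15). Since the rule mixes genes of S phase and of mitosis, these counts describe the cells it chose. Cycling cells also had more genes with a read.

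**Figure D3:**
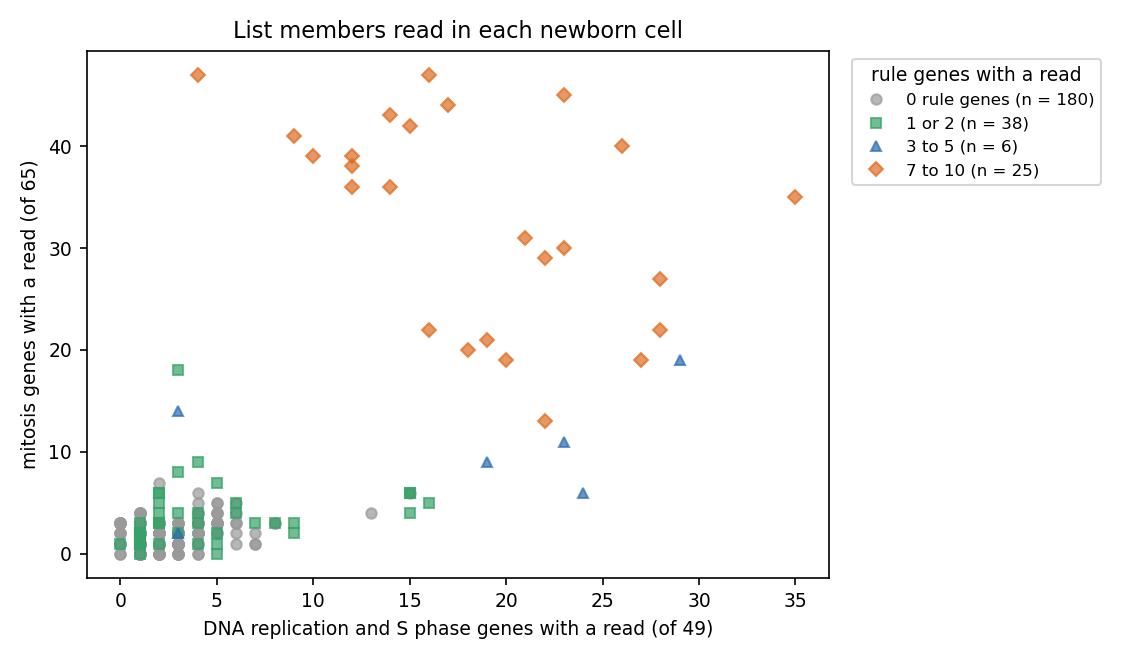
Each point is a newborn cell, placed by the number of replication genes (horizontal axis, of 49) and of mitosis genes (vertical axis, of 65) with a read; the markers show how many rule genes it had. Cells with 0 rule genes stay at or below 7 mitosis genes, and cells with 7 to 10 start at 13.

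Microtubule genes were higher in part. Stmn1, which encodes stathmin, a microtubule-destabilising protein (chr4:134468320-134473843), had the smallest adjusted p with limma on paired cells (0.00781; difference 7.67 ± 0.56). Its levels were 1749 and 1772 CPM in the cycling sums and 122.6 and 106.04 CPM in the non-cycling sums (15.4-fold higher, log2 fold change 3.95 ± 0.19), and it was read in 22 of 22 and 9 of 9 cycling cells and 25 of 110 and 19 of 70 non-cycling cells. Per cell the lowest, median and highest levels were 285.6, 1907 and 4016 CPM in experiment 1 and 614.9, 1965 and 5301 CPM in experiment 2 in cycling cells, while the non-cycling median was 0 in both experiments. Tubb5, a beta tubulin of dividing cells, was at 3633 and 2613 against 1247 and 874.8 CPM (2.94-fold higher), and Tubb6 at 806.8 and 875.6 against 296.9 and 178.6 CPM (3.54-fold higher). Tuba1b, an alpha tubulin, was at 627.2 and 922.9 against 112.7 and 173.7 CPM (5.41-fold higher). Of 11 tested members of the list 7 lay above in both sums (63.6%, against 13.6% of all genes) and 3 below (Tuba4a, Tubb2a and Tubb2b). The share below was 27.3%, against 32.3% of all genes. The median was 1.66 as fitted and 1.56 at the bound. Limma called 8 of 10 tested higher, against 9.85% of all genes. With paired cells it called 3 (Stmn1, Tubb5 and Tubb6), against 0.414% of all genes.

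**Figure D4:**
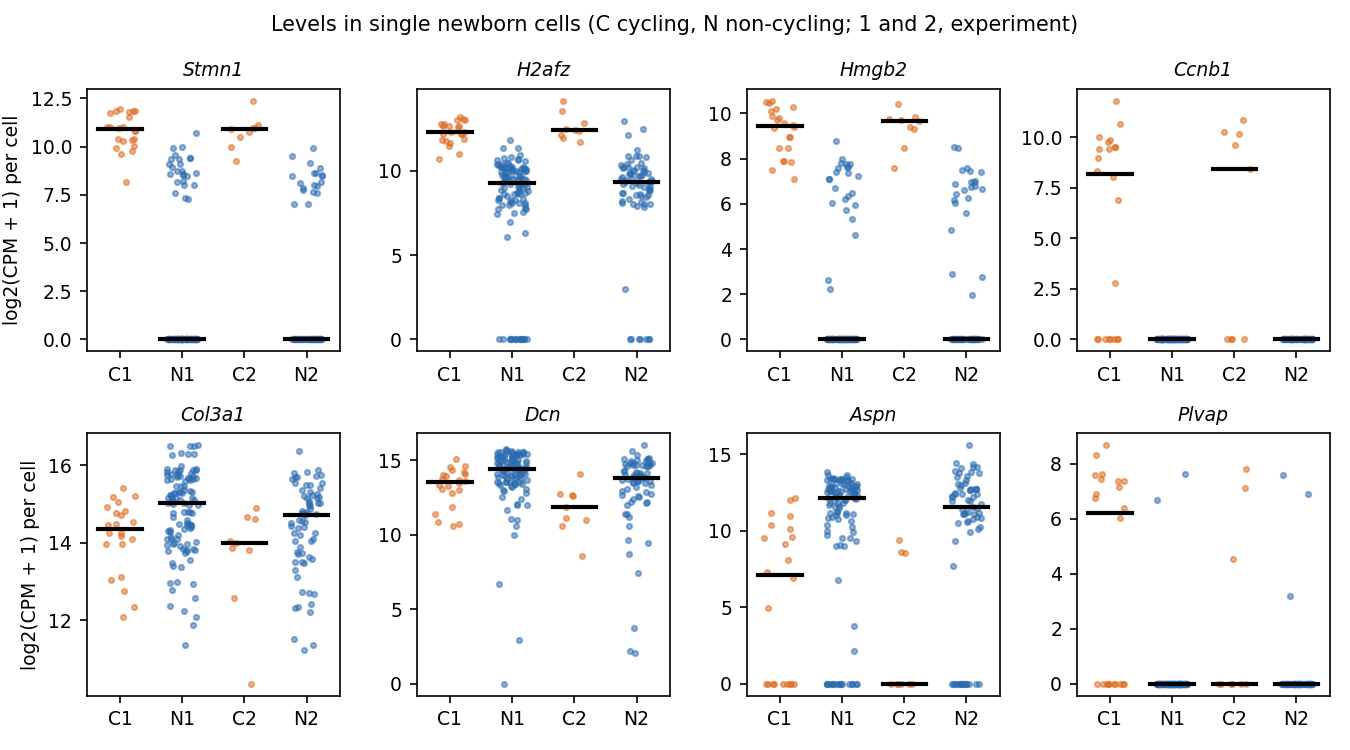
Level per cell as log2(CPM + 1) (vertical axis) of 8 genes in cycling cells of experiments 1 and 2 (C1, C2, orange) and non-cycling cells (N1, N2, blue), with a black bar at the median. Stmn1 and Hmgb2 were read in all 31 cycling cells and have a non-cycling median of 0, Ccnb1 has no non-cycling cell above 0, and the ranges of Col3a1 and Dcn overlap between states.

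Regulators of the G1 phase lay above and below in shares near those of all genes (19.2% above and 34.6% below, against 13.6 and 32.3%). Of 26 tested members 5 lay above in both sums (Cdk2, Cdk4, Cdkn2c, Cdkn2d and Rbl1) and 9 below, and the median was -0.68 as fitted and -0.42 at the bound. Ccnd2, cyclin D2, was at 196.7 and 50.4 CPM in the cycling sums and 557.4 and 414.6 CPM in the non-cycling sums (3.93-fold lower, log2 fold change -2.27 ± 0.55) and lower on 9 of 9 plates; limma called it lower with all cells (adjusted p 0.00585) and with paired cells (0.0478; difference -4.18 ± 0.63). Cdk2, the kinase of cyclins E and A, was at 223.8 and 294.8 against 43 and 52.6 CPM (5.43-fold higher), and Cdk4, the partner of D cyclins, at 877.1 and 550.8 against 346.7 and 423.04 CPM. Cdkn2d, an inhibitor of Cdk4 and Cdk6, was at 346.9 and 224.6 against 102.1 and 44.5 CPM (3.9-fold higher). Limma called these 3 and Cdkn1a, Ccnd3 and Trp53 higher with all cells and none of the 6 with paired cells. It tested 25 members. Of all genes it tested, 9.85% were called higher with all cells and 0.414% with paired cells. Cdkn1a, which encodes the inhibitor p21 and was picked after its values were seen, was at 158.99 and 90.5 against 100.6 and 83.1 CPM (log2 fold change 0.39 ± 0.45). Cdk4 overlaps Tspan31 on the other strand, and without strand their shared reads cannot be told apart.

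Enzymes and factors that serve growth showed smaller and mixed differences. Of all genes 13.6% lay above and 32.3% below, and limma called 9.85% of those it tested higher with all cells. Among 20 nucleotide synthesis genes 8 lay above and 3 below, with a median of 0.13 as fitted and 0.70 at the bound; Dtymk, thymidylate kinase, was at 533.8 and 297.2 against 143.1 and 111.5 CPM (3.26-fold higher) and was the 1 member called by limma with paired cells (adjusted p 0.0479). Dck, which salvages deoxynucleosides, was at 214.2 and 96.3 against 0.0375 and 0 CPM, with 4 reads in all non-cycling cells. Of 19 translation and ribosome biogenesis genes 4 lay above and 2 below (median -0.18 as fitted and -0.04 at the bound), and limma called 6 with all cells and 0 with paired cells. Ran, the GTPase of nuclear transport and spindle assembly, was the member with the smallest p, at 985.5 and 960.97 against 227.4 and 203.2 CPM (4.52-fold higher), while Eef1a1, elongation factor 1 alpha, was at 3200.1 and 5443 against 4211 and 7518 CPM. Of 16 glycolysis genes 5 lay above and 3 below (median 0.48 as fitted and 0.59 at the bound). Pgk1, phosphoglycerate kinase, was at 221.1 and 169.1 against 67.1 and 54.5 CPM and Pkm, pyruvate kinase, at 536.3 and 401.7 against 247.6 and 162.9 CPM, whereas Aldoa, aldolase A, was lower at 96.8 and 139.4 against 438.6 and 410.3 CPM (3.59-fold). Limma called 6 of the glycolysis genes higher and Aldoa lower with all cells and none with paired cells.

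The fibrillar collagens were at lower levels in the cycling sums. Col3a1 (chr1:45311538-45349706), the chain of type III collagen, was at 19279 and 14780.2 CPM in the cycling sums and 40486 and 29342 CPM in the non-cycling sums (2.05-fold lower, log2 fold change -1.03 ± 0.06). Col1a1 was at 6994 and 5414 against 16821 and 10738 CPM (2.22-fold lower) and Col1a2 at 6442 and 5636 against 17108 and 11948 CPM (2.41-fold lower). The sums did not overlap and all 3 genes were lower on 9 of 9 plates, but single cells did overlap: Col3a1 had lowest, median and highest levels of 4361, 21149 and 43705 CPM in experiment 1 and 1313, 16299.97 and 30632 CPM in experiment 2 in cycling cells and 2607, 33591 and 94092 CPM in experiment 1 and 2386, 27043 and 85515 CPM in experiment 2 in non-cycling cells. Limma called the 3 genes lower with all cells (adjusted p 0.00163, 0.00845 and 0.00521) and none with paired cells (0.747, 0.327 and 0.525).

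Of 20 collagen genes tested 11 lay below (55%, against 32.3% of all genes) and 0 above in both sums. The median was -1.13 as fitted and -0.99 at the bound. The 2 members with 0 reads in the cycling cells could not lie above. Limma tested 15 of the collagens. With all cells it called 3 lower and 2 higher, against 0.802% and 9.85% of all genes it tested. Limma called Col6a3 and Col7a1 higher with all cells (differences 1.93 ± 0.40 and 1.86 ± 0.58), although their sums overlapped, at 685.8 and 1157 against 1185 and 1011 CPM and 387.7 and 207.7 against 315.9 and 297.3 CPM; both were picked after their values were seen. Added up, the collagens were at 38512 and 31102 CPM in the cycling sums of experiments 1 and 2 and 83102 and 59732 CPM in the non-cycling sums, 2.04-fold lower (mean log2 ratio -1.03 ± 0.12). With paired cells the ratio was -0.70. CPM values share a fixed total, so a gene group that takes more of the reads leaves less for the rest; how far this bears on the lower genes was not tested.

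Genes that fold, cut and crosslink collagen were lower as well. Of 26 tested 20 lay below (76.9%, against 32.3% of all genes) and 0 above, with a median of -1.68 as fitted and -1.21 at the bound. The 2 members with 0 reads in the cycling cells could not lie above. Sparc, a collagen-binding matrix protein, was at 7683 and 7956 CPM in the cycling sums and 13261 and 13893 CPM in the non-cycling sums (1.74-fold lower, log2 fold change -0.80 ± 0.08) and was the 1 member called lower by limma with all cells (adjusted p 0.035); with paired cells the adjusted p was 0.792. P4ha2, a prolyl hydroxylase subunit, was at 77.8 and 90.7 against 446.8 and 297.7 CPM, Adamts2, which trims procollagen, at 76.1 and 61.8 against 294.3 and 327.7 CPM, and Lox, lysyl oxidase, at 128.03 and 212.9 against 488.2 and 587.5 CPM (4.42-fold, 4.51-fold and 3.16-fold lower). Fkbp11, a peptidyl-prolyl isomerase of the endoplasmic reticulum that is outside the list and was picked after its values were seen, was at 26 and 17.2 CPM in the cycling sums and 314.5 and 150.1 CPM in the non-cycling sums (10.8-fold lower, log2 fold change -3.36 ± 0.43). It was read in 4 of 22 and 1 of 9 cycling cells and 72 of 110 and 39 of 70 non-cycling cells, and limma called it lower with all cells (adjusted p 0.000565) and with paired cells (0.0478).

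Among the small leucine-rich proteoglycans, which coat collagen fibrils, 5 of 8 lay below (Aspn, Ogn, Dcn, Bgn and Lum) and 0 above. The share below was 62.5%, against 32.3% of all genes. The median was -3.39 as fitted and -1.97 at the bound. Aspn, asporin (chr13:49544443-49567565), was at 659.3 and 154.6 CPM in the cycling sums and 5286 and 6358 CPM in the non-cycling sums (14.3-fold lower, log2 fold change -4.18 ± 0.83). It was read in 13 of 22 and 3 of 9 cycling cells and 93 of 110 and 54 of 70 non-cycling cells, was lower on 9 of 9 plates and was called lower by limma with all cells (adjusted p 4.19e-08) and with paired cells (0.015; difference -5.82 ± 0.54). Ogn, osteoglycin, which neighbours Aspn (chr13:49608046-49624501), had 0 reads in 22 cycling cells of experiment 1 and 2 reads in 1 of 9 cells of experiment 2, against 550.96 and 1065 CPM in the non-cycling sums. With the 2 reads set to a bound of 3 reads the pooled level was 8874-fold lower. The interval, taken from the 2 reads themselves, was 3685 to 109909. It covers the counting of reads only, and the 2 reads may be 1 fragment. The adjusted p of Ogn by limma was 0.0003 with all cells and 0.0914 with paired cells. Both genes lie inside Cenpp on the opposite strand; Cenpp had 4645 reads in the newborn cells, far fewer than the 1128796 and 153368 reads of Aspn and Ogn in the non-cycling sums. Dcn, decorin, was at 10468 and 5421 against 26141 and 18559.8 CPM (2.81-fold lower; adjusted p by limma 0.000332 with all cells and 0.854 with paired cells, where the difference was 0.24 ± 0.41).

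Elastic fibre genes were lower too. Of 17 tested 13 lay below (76.5%, against 32.3% of all genes) and 1, Fbln1, above. The median was -1.48 as fitted and -1.17 at the bound. The 1 member with 0 reads in the cycling cells could not lie above. Fbn1, fibrillin 1, the backbone of microfibrils, was at 303.7 and 171.01 CPM in the cycling sums and 637.3 and 631.4 CPM in the non-cycling sums (2.67-fold lower, log2 fold change -1.48 ± 0.32), and limma called it lower with all cells (adjusted p 0.0176) and with paired cells (0.0479). Mfap4, a microfibril-associated glycoprotein, was at 929.3 and 365.3 against 2825 and 2155 CPM (3.85-fold lower; adjusted p 0.0112 and 0.121). Fbln1, fibulin 1, picked after its values were seen, was at 266.7 and 294.2 against 148.3 and 168.4 CPM and was called higher by limma with all cells (adjusted p 0.000102) but not with paired cells (0.128). Of 20 other matrix and matricellular genes 14 lay below (70%, against 32.3% of all genes) and 0 above (median -0.92 as fitted and -0.85 at the bound). Thbs1, thrombospondin 1, was at 133.1 and 50.2 against 410.5 and 310.8 CPM. Ccn1, an integrin-binding matricellular protein, was at 3859.9 and 4382 against 7664 and 6358 CPM. The direction of Ccn1 turned with limma (differences 0.51 ± 0.24 with all cells and 0.40 ± 0.31 with paired cells), where the median of these matrix genes was 0.12 and -0.47. Thbs2, also picked so, was the 1 member called lower with all cells (adjusted p 0.00139), and 0 were called with paired cells.

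**Figure D5:**
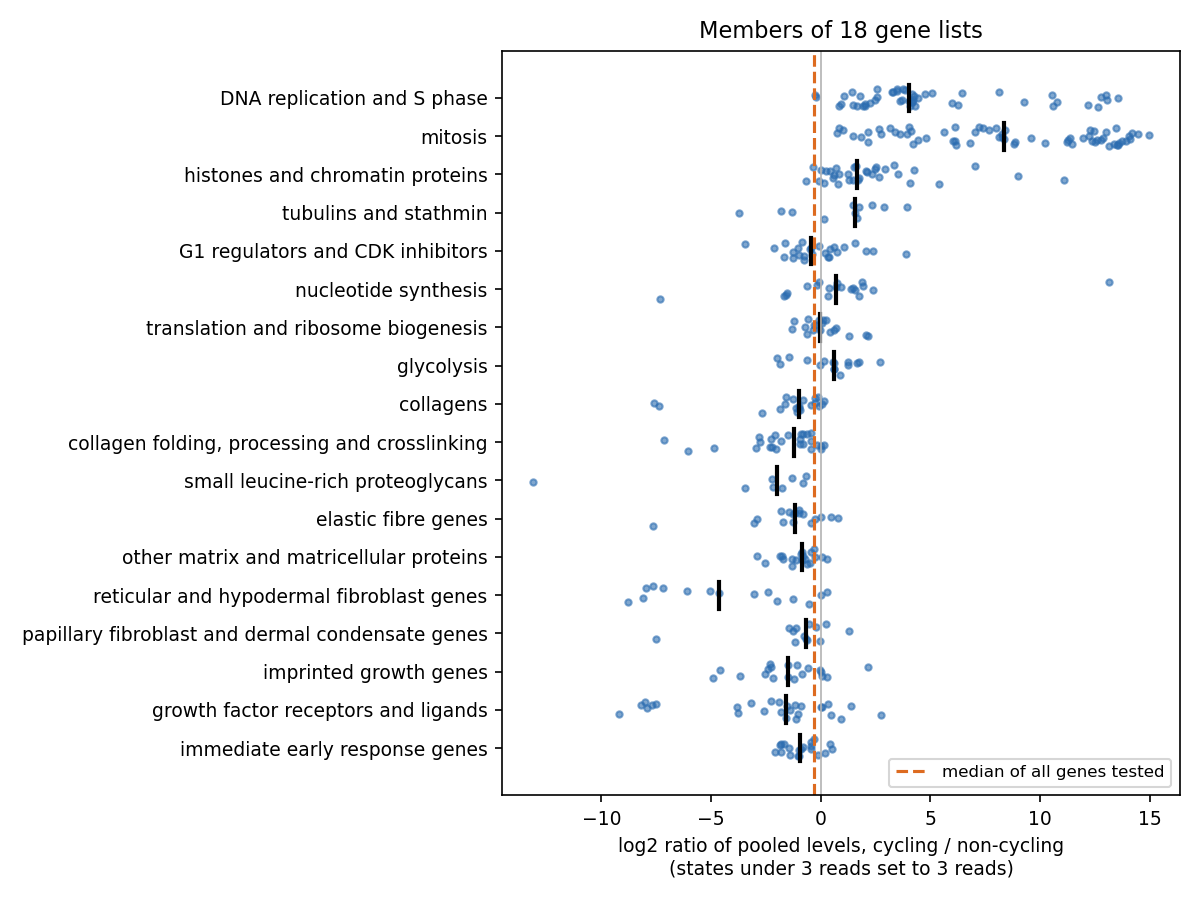
Log2 ratio of pooled levels, cycling over non-cycling (horizontal axis), of every tested member of 18 gene lists (blue points; black bars, list medians), with a state under 3 reads set to 3 reads. The orange line is the median of all genes tested (-0.30); mitosis (8.37) and replication (4.01) lie farthest to its right.

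Limma called 0 genes of fibroblast lineages, imprinted growth genes and growth factor genes in any direction, but it did not test all of them. It tested 9 of 15 reticular, 10 of 13 papillary, 16 of 19 imprinted and 13 of 27 growth factor genes, and Fgf7 was not tested. Other fits called some members. From sums per plate, with plates as replicates, edgeR called the reticular gene Ly6a and the imprinted genes Mest and Plagl1 lower (adjusted p 0.0275, 0.0150 and 0.0300). All genes tested lay below more often than above (32.3% against 13.6%), and the shares below were 73.3% for reticular, 46.2% for papillary, 47.4% for imprinted and 59.3% for growth factor genes. Of 15 reticular and hypodermal genes 11 lay below and 0 above (median -6.01 as fitted and -4.65 at the bound). These medians are the values of the member Ly6a, which is given again below. Of 13 papillary and dermal condensate genes 6 lay below and 1, Wif1, above (median -0.85 as fitted and -0.69 at the bound). With 0 reads in the cycling cells, 4 reticular members and 1 papillary member could not lie above. Of 19 imprinted genes 9 lay below and 0 above (median -1.92 as fitted and -1.49 at the bound): Mest was at 0.0808 and 33.7 against 120.8 and 459.3 CPM and Peg3 at 574.5 and 318.8 against 1027 and 1120.3 CPM. Of 27 growth factor receptors and ligands 16 lay below and 0 above (median -3.64 as fitted and -1.59 at the bound). The 4 growth factor members with 0 reads in the cycling cells could not lie above. Fgf7, a fibroblast ligand for epithelial cells, had 0 reads in cycling cells, but was read in 7 of 110 and 4 of 70 non-cycling cells only. Against a floor of 3 reads over both cycling sums it was 581.8-fold lower, a ratio that rests on reads and not on counted molecules. Experiment 2 had 9 cycling cells, so a gene read in few cells may have no read there; the part of this in the lower counts was not tested.

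Of 5 surface marker genes Pdgfra, Cd24a, Dpp4 and Ly6a lay below in both cycling sums and Cd34 overlapped. EdgeR on the 4 sums and limma called none of the 5. Pdgfra was at 174.4 and 131.8 against 250.5 and 497.9 CPM, Cd34 at 1063 and 580.6 against 843.1 and 1015 CPM and Cd24a at 51.1 and 126.98 against 166.1 and 285.1 CPM. Dpp4 (CD26) was at 262.9 and 325.1 against 577.4 and 347.8 CPM and Ly6a (Sca1) at 9.38 and 0.435 against 77.8 and 289.8 CPM. The adjusted p of the 5 genes were at least 0.686 by edgeR and 0.348 by limma. DESeq2 called Ly6a and Cd24a lower, and edgeR on sums per plate called Ly6a lower (adjusted p 0.0275). The plates are splits of the same 2 experiments, and some held 1 or 2 cycling cells. That fit treats them as replicates, so its p-values do not measure the spread between experiments. Dlk1, a marker of the lower dermal lineage and an imprinted gene, was read in 36.4 and 33.3% of cycling and 36.4 and 32.9% of non-cycling cells, at 9.13 and 3.7 against 33.4 and 50.4 CPM (log2 fold change -2.82 ± 1.82, adjusted p 0.851 by edgeR); DESeq2 called it lower.

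Immediate early genes, which dissociation of tissue can also switch on, had no uniform direction. Of 20 tested 12 lay below (60%, against 32.3% of all genes) and 0 above (median -0.96 as fitted and -0.93 at the bound), but the summed list was higher in cycling cells on 4 of 9 plates and lower on 5, and limma called 1, Dusp1, higher with all cells and 0 with paired cells. Hspa1a, an inducible heat shock protein, was at 354.8 and 91.5 CPM in the cycling sums and 1446 and 426.4 CPM in the non-cycling sums (4.2-fold lower, log2 fold change -2.12 ± 0.20). Hspa1a overlaps Gm20481 on the other strand (27962 reads in newborn cells), and without strand their shared reads cannot be told apart. Klf6, a zinc finger transcription factor, was at 748 and 521.2 against 1564 and 1212 CPM. Clk1, a kinase of splicing factors, was at 464.9 and 682.1 CPM in the cycling sums and 1261 and 1781 CPM in the non-cycling sums (2.65-fold lower, log2 fold change -1.41 ± 0.15), lower on 9 of 9 plates. By limma Hspa1a and Clk1 had adjusted p of 0.768 and 0.0565 with all cells.

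A few further genes were picked after their values were seen. Plvap, a component of endothelial diaphragms (chr8:71497765-71511752), was at 88.1 and 23.3 CPM in the cycling sums and 3.02 and 1.83 CPM in the non-cycling sums (log2 fold change 4.27 ± 1.59) and was read in 12 of 22 and 3 of 9 cycling cells and 2 of 110 and 3 of 70 non-cycling cells. Limma called it higher with all cells (adjusted p 0.00487) but not with paired cells (0.23). Plvap overlaps Gtpbp3 on the other strand (4884 reads in newborn cells), and without strand their shared reads cannot be told apart. Of 8 endothelial markers only Plvap and Egfl7 had reads; Pecam1, Cdh5, Kdr, Emcn, Tie1 and Cldn5 were at 0 in all cells of both states. Gm15428, a processed pseudogene, was read in all 31 cycling and 0 of 180 non-cycling cells, but over all ages only in cells with reads of Pclaf (34 of 37), at a median of 0.927% of the Pclaf reads, so it is not independent of the rule. Tmcc1 (1660.1 and 1048 against 252.2 and 208.2 CPM) and the pseudogene Gm8203 (1017 and 626.1 against 139.6 and 101.4 CPM) overlap on opposite strands, and their reads cannot be told apart without strand.

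Promoters are described because so many of the mitotic genes were higher together. Windows of 250 bases before the RefSeq start (build GRCm38.p6) were searched on both strands for the CCAAT box (CCAAT), the CHR element (TTTGAA) and 2 short E2F motifs, spelled TTCCCGC in the first form and TTGGCGC in the other, which can share 4 bases with a CCAAT box on the other strand. CCAAT was present in 37 of 55 windows of mitosis genes (67.3%), in 21 of 36 of replication genes (58.3%), in 8 of 16 of collagen genes (50%), in 37.9% of the 4856 windows of genes tested by limma and in 34.5% of all 27025 windows. TTTGAA was in 18 of the 55 mitosis windows (32.7%), 6 of the 36 replication windows (16.7%), 2 of the 16 collagen windows (12.5%), 3 of 6 windows of small leucine-rich proteoglycans (50%), 10.9% of the tested genes and 16.3% of all windows. TTCCCGC was in 1 of 55 mitosis windows (1.82%), 10 of 36 replication windows (27.8%), 0 of 16 collagen windows and 7.60% of the tested genes. Genes called higher by limma with all cells had CCAAT in 49.5% and TTTGAA in 15.0% of 554 windows, and genes called lower in 36.2% and 10.6% of 47. The shares are descriptions of the windows and say nothing about binding.

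Promoters of 5 genes are shown, 3 of genes that were higher in cycling cells and 2 of genes that were lower, each 5′ to 3′ on the gene's strand and ending at the base before the start, with matches to the motifs in capitals. Hmgb2 (chr8:57511593-57511842, + strand) had 4 CCAAT and 2 TTTGAA matches, Asf1b (chr8:83955444-83955693, + strand) 4 and 1, and Ccnb1 (chr13:100786487-100786736, − strand) 2 CCAAT matches, the first of them overlapping an E2F match. Ogn (chr13:49607765-49608014, + strand) and Col3a1 (chr1:45311288-45311537, + strand) had 0 CCAAT and 1 TTTGAA match each.
Hmgb2: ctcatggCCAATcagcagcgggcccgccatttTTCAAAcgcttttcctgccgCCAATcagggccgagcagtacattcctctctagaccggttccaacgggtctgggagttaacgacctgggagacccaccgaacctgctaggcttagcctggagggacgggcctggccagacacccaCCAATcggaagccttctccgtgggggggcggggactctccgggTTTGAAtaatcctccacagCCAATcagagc
Asf1b: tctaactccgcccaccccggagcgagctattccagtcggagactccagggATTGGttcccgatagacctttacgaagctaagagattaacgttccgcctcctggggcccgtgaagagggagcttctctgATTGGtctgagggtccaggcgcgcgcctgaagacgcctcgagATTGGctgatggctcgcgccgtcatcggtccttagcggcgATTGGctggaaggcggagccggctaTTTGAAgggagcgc
Ccnb1: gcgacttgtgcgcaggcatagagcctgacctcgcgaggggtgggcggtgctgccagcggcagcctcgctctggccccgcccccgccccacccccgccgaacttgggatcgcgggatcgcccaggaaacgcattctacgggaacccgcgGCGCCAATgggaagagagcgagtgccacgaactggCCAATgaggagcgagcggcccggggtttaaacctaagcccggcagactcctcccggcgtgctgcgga
Ogn: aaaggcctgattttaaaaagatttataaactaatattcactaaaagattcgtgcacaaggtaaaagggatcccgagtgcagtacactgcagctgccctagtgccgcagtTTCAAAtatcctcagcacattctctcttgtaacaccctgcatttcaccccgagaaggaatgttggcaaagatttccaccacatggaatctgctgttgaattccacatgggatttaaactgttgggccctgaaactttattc
Col3a1: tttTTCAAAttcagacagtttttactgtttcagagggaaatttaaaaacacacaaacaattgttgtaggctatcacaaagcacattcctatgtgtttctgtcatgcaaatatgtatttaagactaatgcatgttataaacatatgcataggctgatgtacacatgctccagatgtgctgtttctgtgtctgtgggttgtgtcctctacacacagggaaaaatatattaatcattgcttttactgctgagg
The 3 promoters of the higher genes carried CCAAT boxes. The nearest lay 11, 39 and 67 bases before the RefSeq start in Hmgb2, Asf1b and Ccnb1. The nearest TTTGAA match lay 30 and 14 bases before that start in Hmgb2 and Asf1b. In Ogn and Col3a1 the match lay farther from the start than these. The other Hmgb2 match lay farther away than the Ogn match but nearer than the Col3a1 match. For Asf1b and Ccnb1 the RefSeq start lies inside the gene span given above, so part of each window overlaps that span. The Asf1b matches with distances given here lie inside it. Distances for these 2 genes thus depend on the start used.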

How the data were processed

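Single dermal fibroblasts of newborn mice were profiled by Smart-seq2. The deposited tables hold raw read counts per gene and well, per the file headers and values, and the submitters' processing notes name GRCm38 and FastQC; the aligner and the counter were not stated in the labels or headers. Tables used different annotation versions, so identifiers were joined without versions (51777 common gene entries, 908 left out, names from GENCODE M21). For 183 wells with 2 sequencing runs, counts were added (correlation of paired runs at least 0.996, of other plate pairs at most 0.355). Cells needed 50000 gene reads, 1000 genes and at most 25% mitochondrial reads.

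Reads were summed per state and experiment and tested with edgeR 4.0.16 (TMM, filterByExpr, robust quasi-likelihood fit, experiment as a block, rule genes left out, Benjamini-Hochberg threshold 0.05; SE as absolute log2 fold change over the square root of F; biological coefficient of variation 1.28). DESeq2 1.42.0 and limma 3.58.1 (mean log2(CPM + 1) per cell, pseudocount 1) were alternatives, as were other scalings, filters, thinning, pairing by detected genes, other limits of the rule, sums per plate and leaving out plates or sums. The edgeR, DESeq2 and limma steps were run on simulated counts whose spread was set low, so that the known folds could be recovered. Limma was run there on log CPM of sums, not on means per cell. How the steps perform at the spread of these data was not tested. Limma with paired cells and a limit of 4000 genes per cell were chosen after seeing the data. The members and gene lists were chosen with earlier results of these data known. Genes were named by a rule. It took the 5 smallest p in each direction read in at least 20% of cells of the higher state in both experiments. From each list it took the 2 members with the smallest p and the 1 with the highest level. Dlk1 and 5 surface marker genes (Pdgfra, Cd34, Cd24a, Dpp4 and Ly6a) were added. Some further members, among the 4 smallest p or the 2 highest levels of a list, were picked by hand and are not marked. All others are marked as picked after their values were seen. Of counts above 0, 75.2% were even, so 2 reads can stand for 1 fragment. The replicate number marks the experiment, per the labels; deviations of same-numbered sums correlated at 0.0364. Intervals for shares are exact Clopper-Pearson 95% intervals.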

Additional observations from a re-analysis of the deposited data

Results flagged for a closer look

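Values per plate were compared within the 5 plates of experiment 1 and the 4 of experiment 2, over 38 groups of plates, and 4 groups held a plate far from the others, where the critical value used is nominally passed by chance in about 1 in 20 groups. The log2 ratio of the summed mitosis list, cycling over non-cycling, was 5.56 on plate P1963 and 4.11 to 4.47 on the other plates of experiment 1. The ratio of histone and chromatin genes was 1.30 on plate P2143, where 1 cell was cycling, and 1.66 to 1.73 on the other plates of experiment 2. For small leucine-rich proteoglycans it was 0.45 (0.452) on P2143 and -1.53 to -1.41 on the others, so that the list was lower in cycling cells on 8 of 9 plates. For elastic fibre genes it was -0.59 on plate P2135 and -0.71 to -0.69 on the others of experiment 2.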

How the results depend on the processing

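edgeR called 0 genes under every scaling, filter, rule limit and left-out plate or sum; DESeq2 called 939 higher and 1994 lower, limma 761 and 62, limma with paired cells 32 and 4, and edgeR on sums per plate 31 and 290. The fit per plate treats plates as replicates, although they are splits of the same 2 experiments. The mitosis ratio stayed within 4.11 to 4.56. The replication ratio was 2.18 from sums per plate and 2.53 without plate P2135, and 2.59 to 3.03 with a sum left out. The collagen ratio was -0.90 with RLE size factors, -0.70 with paired cells, -1.15 from sums per plate and -0.86 without plate P1961, and -1.29 to -0.78 with a sum left out; the mitosis ratio was then 4.24 to 4.56. The cause was not tested.

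Without the replicate block edgeR also called 0 genes, and the ratios were 2.82, -1.03 and 4.41. Both states of an experiment were split from cells of the same plates, so the block follows from the design. Cycling and non-cycling sums deviated with a correlation of 0.0364, which does not bear on that.

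The log2 difference of some named genes changed sign. With DESeq2 it was 0.0112 for Col7a1. With RLE size factors it was 0.0105 for Col7a1. With at least 5 rule genes it was 0.0259 for Col7a1. With paired cells (edgeR) it was 0.79 for Plagl1, 0.51 for Dusp1, 0.71 for Col7a1, 0.25 for Dpp4, -0.0510 for Nme1. With thinned cells it was 0.0273 for Dusp1. By limma with paired cells it was 0.85 for Twist2, 0.24 for Dcn, 0.38 for Bmp4, 0.46 for Dusp1, 2.18 for Col7a1, 0.40 for Ccn1, 0.26 for Pdpn, 1.06 for Lum, 0.87 for Col6a3. By limma with all cells it was 0.10 for Klf6, 0.88 for Twist2, 0.17 for Lpl, 0.11 for Cd34, 1.10 for Dusp1, 1.86 for Col7a1, 0.51 for Ccn1, 0.32 for Pdpn, 0.37 for Pdgfra, 0.17 for Cd24a, 1.93 for Col6a3. From sums per plate it was -0.34 for Ldha. Without plate P1960 it was 0.0367 for Dusp1. Without plate P1961 it was 0.10 for Dusp1, 0.0451 for Col6a3. Without plate P1963 it was 0.00337 for Col7a1. Without plate P2135 it was 0.0281 for Dusp1. Without plate P2143 it was 0.13 for Col7a1. With 1 sum left out the log2 fold change of Cd34 ran from -0.69 to 0.18, the log2 fold change of Cdkn1a ran from -0.0344 to 0.78, the log2 fold change of Col6a3 ran from -0.69 to 0.0631, the log2 fold change of Col7a1 ran from -0.57 to 0.33, the log2 fold change of Dusp1 ran from -0.53 to 0.23, the log2 fold change of Eef1a1 ran from -0.88 to 0.00730, the log2 fold change of Gadd45g ran from -3.37 to 0.0524 and the log2 fold change of Nme1 ran from -0.23 to 1.29. With all sums the values were -1.49 for Bmp4, -0.76 for Ccn1, -1.43 for Cd24a, -0.24 for Cd34, 0.39 for Cdkn1a, -0.30 for Col6a3, -0.11 for Col7a1, -1.55 for Dcn, -0.62 for Dpp4, -0.15 for Dusp1, -0.43 for Eef1a1, -1.52 for Gadd45g, -1.14 for Klf6, 0.57 for Ldha, -1.16 for Lpl, -0.57 for Lum, 0.53 for Nme1, -1.22 for Pdgfra, -1.69 for Pdpn, -1.67 for Plagl1, -0.56 for Twist2. The cause was not tested. With a single sum left in a state, that sum was assumed to vary like the others. The number of experiments (2) and of cycling cells in experiment 2 (9) limits precision.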

Other observations

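Plvap, read in 15 of 31 cycling and 5 of 180 non-cycling newborn cells, was also read in adult cells, none of which reached 3 rule genes: in 28.9 and 29.8% of young cells (41 and 31 cells) and in 27.8 and 17.5% of old cells (35 and 20) of experiments 1 and 2. Among all newborn cells its share was 8.86 and 8.79%. Mitochondrial reads had medians of 3.02 and 3.41% in cycling and non-cycling cells of experiment 1 and 3.85 and 3.71% in experiment 2. Pseudogenes made up 48 of the 761 genes called higher by limma with all cells (6.31%) and 1105 of the 7651 tested by both tools (14.4%).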
